A study of Mus musculus with 6 samples.

Results

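The integrin subunits examined here are 10 genes whose proteins pair as alpha and beta chains into receptors that fix cells to the extracellular matrix. They were taken as every probe set annotated to exactly 1 of the symbols Itga2, Itga3, Itga5, Itga6, Itgav, Itgb1, Itgb4, Itgb5, Itgb6 and Itgb8, which gave 29 of the 45037 probe sets that are not array controls. Primary ovarian surface epithelium cells, from the single layer that covers the ovary, were taken from the ovaries of virgin FVB/N mice aged 8 weeks and cultured for 24 hours before the sort. Both groups share this origin: ALDH-positive cells are those sorted for high aldehyde dehydrogenase activity in the ALDEFLUOR stain, and ALDH-negative cells are those sorted for its lack. The mice were pooled by 10, and 3 such pools were each split into both fractions, which gave 3 ALDH-positive and 3 ALDH-negative arrays (Affymetrix Mouse Genome 430 2.0). A value therefore stands for a pool and not for 1 animal.

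An integrin receptor holds 1 alpha and 1 beta chain, and the pair decides which matrix protein is bound. Itgb1 is the shared beta chain that pairs with Itga2 (collagen), Itga3 and Itga6 (laminin) and Itga5 (fibronectin). Itga6 also pairs with Itgb4 in hemidesmosomes, while Itgav pairs with Itgb1, Itgb5, Itgb6 or Itgb8, binds ligands with the RGD motif such as vitronectin and fibronectin, and with Itgb6 or Itgb8 releases latent TGF-beta. Surface epithelium of the ovary lies on a basement membrane and is loosely attached to it, and integrins are among its adhesion receptors.

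Levels below are log2 signals after quantile normalization of the 6 arrays, and a difference is ALDH-positive minus ALDH-negative within a pool, averaged over the 3 pools. Signals of different probe sets are not set against each other, since each has its own brightness. Dim probe sets, the 40% of lowest mean level (under 2.73 on the log2 scale), were not tested; 19 of the 29 integrin probe sets, from 7 genes, passed that filter. The members just inside it were Itgb4 (mean 3.32) and an Itga5 probe set (3.61), and those just outside it were Itgb1 1427771_x_at (2.49) and Itga2 (2.33). In bulk samples such as these, fewer cells that express a gene and less RNA per cell cannot be told apart.

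The array of ALDH-negative cells of pool 2 was unlike the rest: its correlation with them across probe sets was 0.558 to 0.679, while the rest correlated at 0.850 to 0.974 among themselves. It read lowest of the 6 arrays for 9 of the 19 integrin probe sets, against 35.1% of all tested probe sets and 41.3% of the brightest 40%. Both arrays of pool 3 had low deposited signal at the 5' control probe set of Gapdh, with 5.20 for ALDH-positive cells and 6.63 for ALDH-negative cells, against 7.92 to 10.30 on the other arrays. The 3 control probe sets of beta-actin read 3.53 to 5.03 in the deposited values of ALDH-negative cells of pool 2, against 7.73 to 11.32 on the other arrays; the part of this in the integrin values was not tested. The list of 13 markers of surface epithelium and mesothelium was chosen with earlier results of these data known, so its count is a description only. These markers read higher in ALDH-positive cells in every pool for 13 of 13 (1444 of the 12814 genes tested, 11.3%, did so). Their summed log2 level was 91.4 to 98.8 on ALDH-positive and 48.8 to 54.7 on ALDH-negative arrays, and Bnc1 and Lrrn4 stayed below the filter level on all 3 ALDH-negative arrays. The 6 tested of 7 fibroblast and stroma markers summed to 36.8 to 38.8 on ALDH-positive and 24.0 to 32.5 on ALDH-negative arrays, with Lum below the filter level on every array. Of the 6 tested, 3 read higher in ALDH-positive cells in every pool (11.3% of all genes did so), while Col1a2, Dcn and Pdgfra read lower in pool 3. Whether cell makeup differed between the fractions, and its part in the integrin values, was not tested.

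Most integrin probe sets read higher in ALDH-positive cells, but none passed the test. Of the 19 tested, 18 had a mean difference above 0, against 48.2% of all 27022 tested, and their median was 0.75 against -0.036 for all. The brightest 40% of all probe sets had a median of 0.10, with 0.47 in pool 2. The 17 integrin probe sets among those had 0.95, with 1.48 in pool 2. The probe sets of lowest p were Itga3 1455158_at, Itga6 1422444_at and Itgb1 1426918_at, at differences of 2.19, 2.75 and 2.44. In ALDH-negative cells of pool 2 the Itga6 and Itgb1 probe sets read 2.09 and 2.05, below the filter level. The Itga6 probe set also read below it, at 2.72, in ALDH-negative cells of pool 3. The size of these differences is therefore uncertain. After adjustment over all probe sets (limma, pool as a block), 0 of 19 integrin probe sets and 0% of all passed 0.05; the lowest adjusted p among integrins was 0.895. At an unadjusted p under 0.05, 3 of 19 lay higher, against 2.04% of all, and 0 lay lower, against 0.403%. On 4 of the 19 all ALDH-positive arrays read above all ALDH-negative arrays, against 3.49% of all, and on 0 all read below, against 3.4%. The counts cover only probe sets that passed the filter and so are a description, and 3 pairs allow an exact sign-flip p no lower than 0.25.

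The 3 pools did not contribute alike. The median integrin difference was 0.48 in pool 1, 1.47 in pool 2 and 0.52 in pool 3, and pool 2 held the difference of largest size, in either direction, for 13 of the 19. Without pool 2 the median was 0.57, against 0.014 for all probe sets. In pools 1 and 3 together, 7 of 19 read higher in ALDH-positive cells in both, against 25.7% of all, and 1 read lower in both, against 26.4%. In all 3 pools 6 of 19 read higher, against 11.5% of all, and 0 lower, against 10.8%. These 6 belong to Itga3, Itga5, Itga6 and Itgav, so each is an alpha chain, though Itgav 1452784_at was higher by 0.0029 only in pool 3. The beta chains Itgb1, Itgb4 and Itgb5 had none, though Itgb1 1426918_at fell short in pool 1 alone, at -0.035. A difference between alpha and beta chains was not tested.

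**Figure D1:**
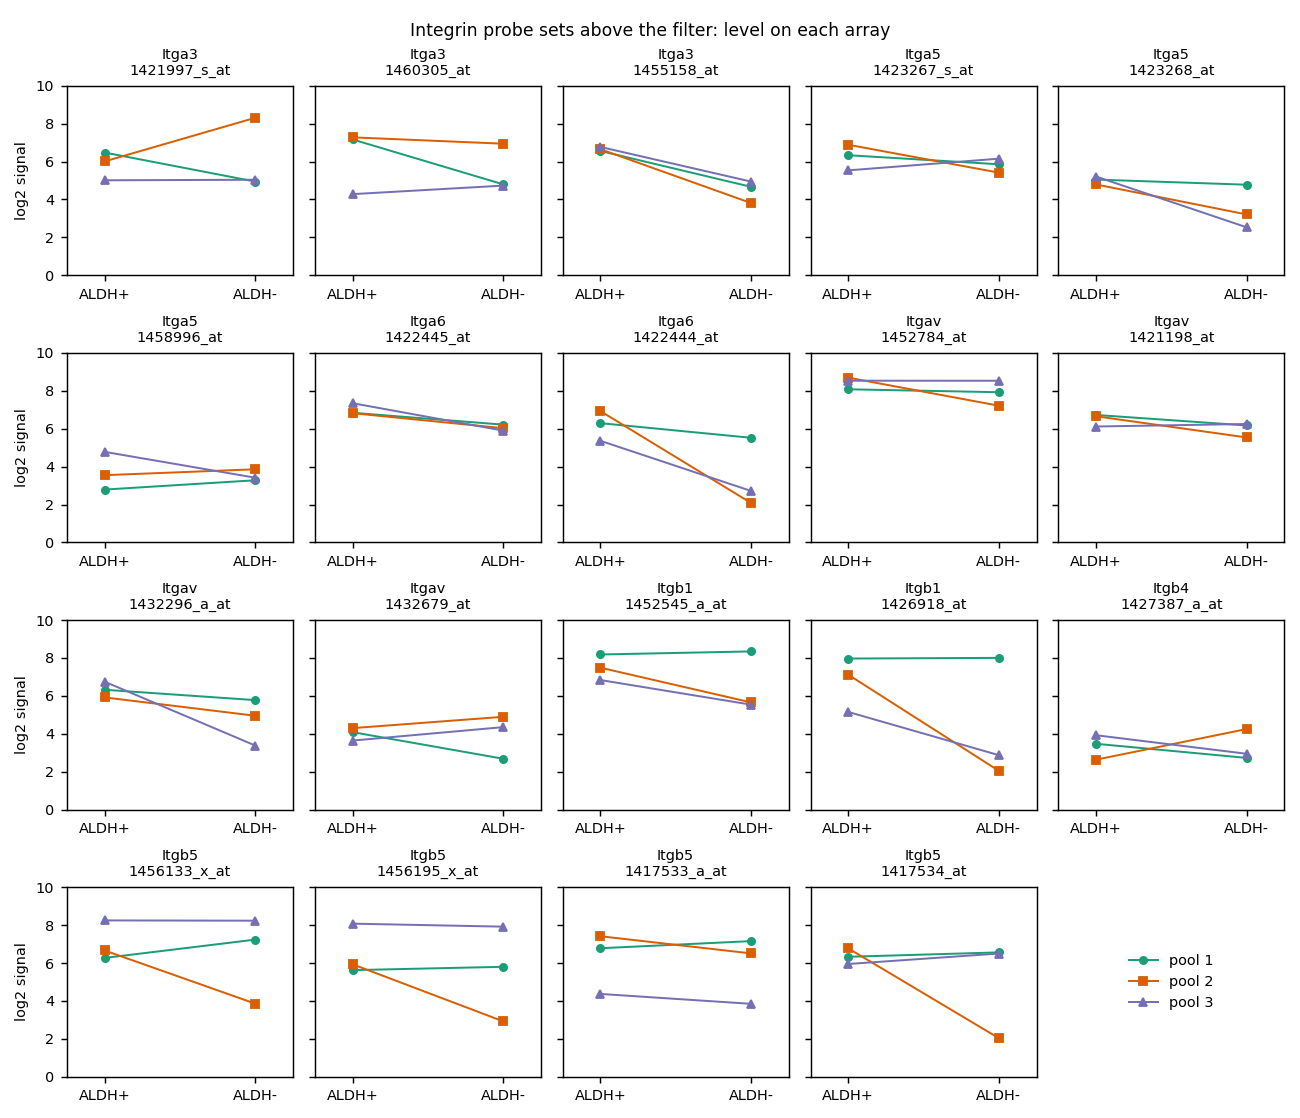
Log2 signal (vertical axis) of the 19 tested integrin probe sets in ALDH-positive (left of each panel) and ALDH-negative cells (right), with 1 line for each of the 3 pools. Itga3 1455158_at and Itga6 1422445_at slope down to ALDH-negative cells in every pool, while 3 of the 4 Itgb5 probe sets drop mainly in pool 2.

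Itga3, the alpha chain of the laminin receptor that sits at epithelial cell borders and basal sides, had a probe set that was higher in ALDH-positive cells in every pool. Itga3 1455158_at read 6.56, 6.65 and 6.77 in ALDH-positive cells of pools 1 to 3, against 4.67, 3.81 and 4.94 in ALDH-negative cells. The groups did not overlap, and the ALDH-positive values lay close together. The difference was 2.19 (SE 0.65, 95% interval 0.66 to 3.71), or 4.55-fold, with a limma adjusted p of 0.895. Without pool 2 it was 1.86.

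The other probe sets of Itga3 did not repeat this in every pool. Itga3 1460305_at read 7.17, 7.28 and 4.28 in ALDH-positive cells, against 4.80, 6.94 and 4.73 in ALDH-negative cells. Here pool 1 differed by 2.37 and pool 3 by -0.45. Itga3 1421997_s_at read 6.48, 6.01 and 5.01 in ALDH-positive cells, against 4.94, 8.31 and 5.04 in ALDH-negative cells. Its mean difference of -0.27 (SE 0.86) was the one below 0 among the 19, and it came from pool 2; in the values as deposited it was 0.29 and without pool 2 it was 0.75. The mean over the 3 probe sets gave a difference of 0.89 (SE 0.69, 95% interval -0.71 to 2.50), so that the gene's value rests on which probe set is read. Itga3 1460305_at read lowest in both fractions of pool 3, the pool with the low 5' signal of Gapdh; the part of RNA quality in these values was not tested.

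Itga6, the alpha chain of the laminin receptors that pairs with Itgb1 or Itgb4 and a marker of many epithelial progenitor cells, read higher in ALDH-positive cells at both of its probe sets in every pool. Itga6 1422445_at read 6.84, 6.82 and 7.35 in ALDH-positive cells, against 6.21, 6.03 and 5.90 in ALDH-negative cells. The groups did not overlap, and the difference of 0.95 (SE 0.64, 95% interval -0.55 to 2.46) corresponded to 1.94-fold. Itga6 1422444_at read 6.29, 6.93 and 5.36 in ALDH-positive cells, against 5.52, 2.09 and 2.72 in ALDH-negative cells. Its groups overlapped, because ALDH-negative cells of pool 1 read above ALDH-positive cells of pool 3, but each pair ran the same way. The difference was 2.75 (SE 0.88, 95% interval 0.70 to 4.81, limma adjusted p = 0.895), and 1.71 without pool 2. Averaged over both probe sets Itga6 differed by 1.85 (SE 0.71, 95% interval 0.20 to 3.51, limma adjusted p = 0.895). By pool this average was 0.70, 2.82 and 2.04, and it was 1.37 without pool 2.

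Itgb4, the hemidesmosomal partner of Itga6, had 1 probe set near the filter level. It read 3.47, 2.64 and 3.92 in ALDH-positive cells, against 2.73, 4.25 and 2.94 in ALDH-negative cells. Pools 1 and 3 read 0.74 and 0.98 higher in ALDH-positive cells and pool 2 read 1.61 lower, which left a mean of 0.036 (SE 0.76, 95% interval -1.75 to 1.82) and 0.86 without pool 2. The interval does not exclude a change of more than 3-fold in either direction.

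Itgb1, the beta chain common to the collagen, laminin and fibronectin receptors, was as bright in both fractions of pool 1 and higher in ALDH-positive cells of pools 2 and 3. Itgb1 1452545_a_at read 8.18, 7.49 and 6.83 in ALDH-positive cells, against 8.34, 5.65 and 5.54 in ALDH-negative cells. Itgb1 1426918_at read 7.97, 7.12 and 5.15 in ALDH-positive cells, against 8.00, 2.05 and 2.87 in ALDH-negative cells. The pool differences of 1426918_at were -0.035, 5.07 and 2.28, with a mean of 2.44 (SE 0.99, 95% interval 0.12 to 4.76, limma adjusted p = 0.895), and 1.12 without pool 2. Those of 1452545_a_at were -0.16, 1.83 and 1.30, with a mean of 0.99 (SE 0.70, 95% interval -0.65 to 2.63), or 0.57 without pool 2. The other 4 probe sets of Itgb1 had means of 0.62 to 2.49, below the filter level, and were not tested. In pool 3, where the 5' signal of Gapdh was low, 1426918_at read lower in both fractions than in either fraction of pool 1.

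Itga5, the alpha chain of the main fibronectin receptor, showed unlike patterns at its 3 tested probe sets. Itga5 1423268_at read 5.05, 4.79 and 5.21 in ALDH-positive cells, against 4.78, 3.21 and 2.53 (below the filter level) in ALDH-negative cells. The groups were separate by a margin that closed in the values as deposited, where ALDH-positive cells of pool 2 read 5.01 and ALDH-negative cells of pool 1 read 5.17. The difference was 1.51 (SE 0.73, 95% interval -0.19 to 3.21). Itga5 1423267_s_at differed by 0.44 (SE 0.70), with 0.48, 1.47 and -0.62 in pools 1 to 3, and Itga5 1458996_at by 0.19 (SE 0.70), with -0.49, -0.31 and 1.36; without pool 2 they stood at -0.069 and 0.44. A further probe set, 1457561_at, was below the filter level at a mean of 2.27.

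Itgav, the alpha chain of the vitronectin receptors, was close to equal in both fractions of pools 1 and 3 at its brightest probe set. Itgav 1452784_at read 8.08, 8.69 and 8.53 in ALDH-positive cells, against 7.92, 7.21 and 8.53 in ALDH-negative cells. Its difference of 0.55 (SE 0.68, 95% interval -1.03 to 2.13) was 0.079 without pool 2. Itgav 1421198_at differed by 0.51 (SE 0.66), with 0.55, 1.12 and -0.13 in pools 1 to 3, and by 0.21 without pool 2. Itgav 1432296_a_at read 6.32, 5.92 and 6.75 in ALDH-positive cells, against 5.77, 4.95 and 3.38 in ALDH-negative cells. These groups did not overlap, and the difference of 1.63 (SE 0.78, 95% interval -0.19 to 3.45) lay mostly in pool 3, at 3.37, against 0.55 in pool 1 and 0.97 in pool 2. Itgav 1432679_at differed by 0.033 (SE 0.72), higher in pool 1 and lower in pools 2 and 3, and 1432678_at was below the filter level.

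Itgb5, a vitronectin receptor chain that pairs with Itgav, had all 4 of its probe sets above the filter level. Itgb5 1417534_at read 6.33, 6.77 and 5.95 in ALDH-positive cells, against 6.56, 2.03 (below the filter level) and 6.50 in ALDH-negative cells. Its difference of 1.32 (SE 1.09, 95% interval -1.23 to 3.87) rested on the pool 2 array that stood apart; pools 1 and 3 gave -0.23 and -0.55. Of the 19 tested integrin probe sets it was the one that read lower in ALDH-positive cells in both of those pools. Itgb5 1456133_x_at and 1456195_x_at gave differences of 0.62 (SE 0.86) and 1.00 (SE 0.82), which were -0.48 and -0.0087 when pool 2 was left out. Itgb5 1417533_a_at differed by 0.35 (SE 0.66) and by 0.074 without pool 2. Averaged over the 4 probe sets, Itgb5 differed by -0.20 in the mean of pools 1 and 3 and by 2.86 in pool 2. The 4 tested of 6 theca, interstitial and luteal markers had medians of -0.60, 4.24 and -0.70 in pools 1 to 3. Their summed levels were 36.4 to 39.0 on ALDH-positive and 21.0 to 41.6 on ALDH-negative arrays. Granulosa markers, 5 tested of 7, had medians of -0.032, 2.66 and -0.30, though Esr2 and Amh differed by -2.30 and -0.85 in pool 2. The part of either list in the Itgb5 values was not tested.

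Of the Itgb5 probe sets, 1456133_x_at and 1417533_a_at also parted from each other in pool 3, in both fractions alike. In pool 3, 1456133_x_at read 8.25 for ALDH-positive cells and 8.23 for ALDH-negative cells, its highest values, while 1417533_a_at read 4.37 and 3.85 there, its lowest. For 1417534_at the values of pool 3, 5.95 and 6.50, lay near those of pool 1, 6.33 and 6.56. By the maker's naming an _x_at probe set can also bind other transcripts and an _a_at probe set covers several transcripts of 1 gene.

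Itga2, Itgb6 and Itgb8 gave no reading above the filter level in the mean. Itga2, the alpha chain of a collagen receptor, read 2.21, 1.66 and 2.15 in ALDH-positive cells, against 2.84, 3.02 and 2.12 in ALDH-negative cells. Itgb6, an epithelial chain that activates latent TGF-beta, read 0.79 to 1.30 in ALDH-positive and 0.76 to 1.60 in ALDH-negative cells over its 2 probe sets. Itgb8, the other chain with that role, read 1.81, 2.37 and 0.46 in ALDH-positive cells, against 1.23, 0.96 and 1.50 in ALDH-negative cells. Neither presence nor absence of these chains was read from such dim signals, since detection calls were not used here.

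**Figure D2:**
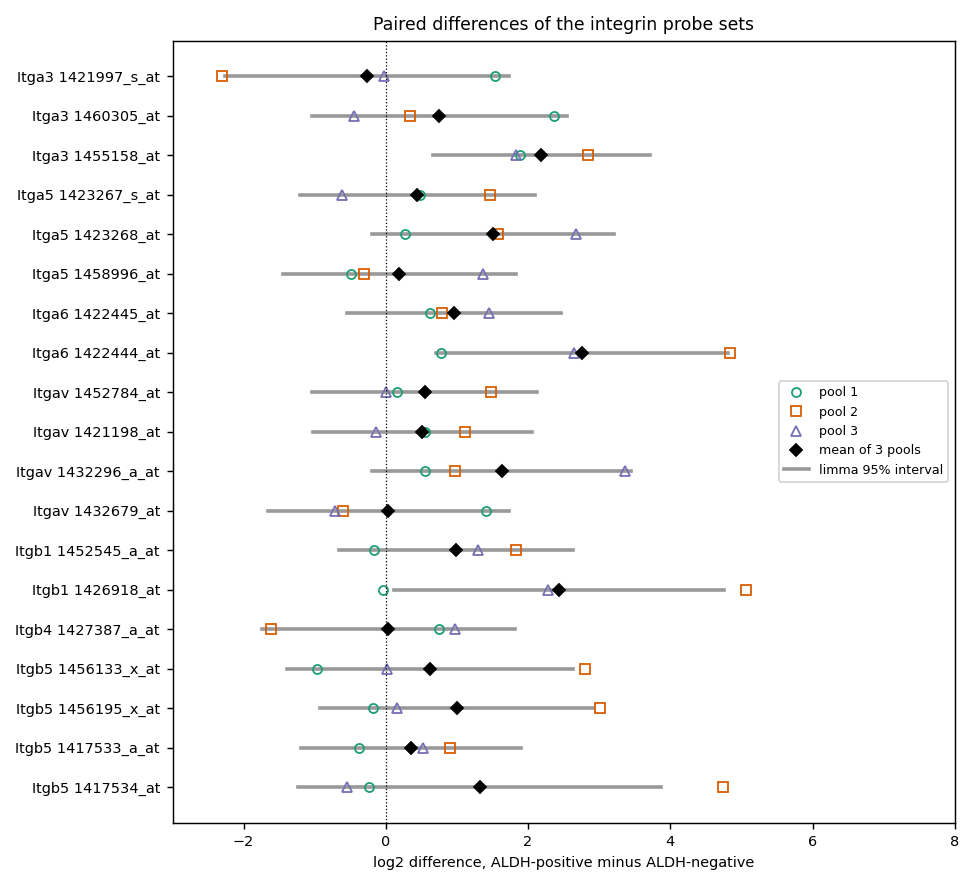
Log2 difference, ALDH-positive minus ALDH-negative (horizontal axis), of the 19 tested integrin probe sets; open symbols are the 3 pools, diamonds their mean and bars the limma 95% interval. The interval lies above 0 for Itga3 1455158_at, Itga6 1422444_at and Itgb1 1426918_at before adjustment over all probe sets, and pool 2 lies farthest from 0 for 13 probe sets.

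The stretches upstream of the start sites are shown for the alpha chains that had a probe set higher in all 3 pools. Promoters of 8 of the 10 genes were in the RefSeq table of GRCm38.p6, and Itga6 and Itgb4 had no entry. Below are the 250 bases before the start of Itga3 (chr11:95076715-95076964, minus strand, the first of 2 starts), Itga5 (chr15:103366792-103367041, minus strand) and Itgav (chr2:83724147-83724396, plus strand), 5' to 3' on the gene's strand. Capitals mark the GC box GGGCGG, read on either strand.
Itga3: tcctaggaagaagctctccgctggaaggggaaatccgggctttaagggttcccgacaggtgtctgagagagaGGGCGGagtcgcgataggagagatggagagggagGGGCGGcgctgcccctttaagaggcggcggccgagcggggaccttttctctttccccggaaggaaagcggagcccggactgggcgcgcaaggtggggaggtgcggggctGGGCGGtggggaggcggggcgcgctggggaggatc
Itga5: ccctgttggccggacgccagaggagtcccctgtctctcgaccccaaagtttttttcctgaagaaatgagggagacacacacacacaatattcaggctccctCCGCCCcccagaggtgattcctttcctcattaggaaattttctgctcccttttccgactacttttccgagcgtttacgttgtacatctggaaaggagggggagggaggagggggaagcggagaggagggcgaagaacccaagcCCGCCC
Itgav: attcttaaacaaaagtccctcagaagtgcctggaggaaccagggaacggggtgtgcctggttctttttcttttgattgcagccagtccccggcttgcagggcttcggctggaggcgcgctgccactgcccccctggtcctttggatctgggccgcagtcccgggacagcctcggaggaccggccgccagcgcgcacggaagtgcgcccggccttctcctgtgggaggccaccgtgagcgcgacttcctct
Itga3 held 3 matches of the GC box, Itga5 held 2 and Itgav none; 32.7% of all 32851 promoters in the table had at least 1 in the same window. Neither TGANTCA, the motif of AP-1, nor GGAATG, that of TEAD factors, was found in these windows, against 6.75% and 12.6% of all promoters. These matches describe the letters alone.

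The genes around the integrins were read from lists with 1 probe set a gene, and none of any list passed after adjustment over all probe sets (0% of the 12814 genes). On this scale the 7 integrin members tested had a median difference of 0.55, with 0.48, 1.47 and 0.014 in pools 1 to 3, against -0.082 for all genes. Of these 7, 6 lay higher (46% of all genes did) and 2 did so in every pool (11.3% of all). At a limma unadjusted p under 0.05, 0 of the 7 lay higher, against 1.93% of all genes. Of 16 other integrin subunits, 14 were on the array and 7 were tested, with a median of -0.86 (-0.17 without pool 2), and 6 of the 7 lay lower, as did 54% of all genes. By pool the median was 0.27, -1.95 and -0.62, so the mean direction did not hold in pool 1. Itga9, an alpha chain that binds tenascin and osteopontin, read 4.84, 5.30 and 4.59 in ALDH-positive cells, against 5.77, 6.52 and 6.58 in ALDH-negative cells. It was lower in every pool without overlap, at -1.38 (SE 0.65), or -1.46 without pool 2. Itgb3, Itga2b and Itga4, chains of platelets and leukocytes among other cells, differed by -0.87, -0.84 and -0.86, and by -0.32, -0.33 and -0.17 without pool 2. In pool 1 these 3 read higher in ALDH-positive cells, by 0.26, 0.24 and 0.27. Leukocyte markers, 5 tested of 8, summed to 14.6 to 21.5 on ALDH-positive and 15.0 to 26.3 on ALDH-negative arrays, also with their largest median difference in pool 2 (-2.44), and their part in these values was not tested.

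Ligands of the integrins differed from list to list. In the list of RGD and other matrix ligands 10 of 11 tested genes lay higher (46% of all genes did), with a median of 0.98 (0.58 without pool 2), and 4 had an unadjusted p under 0.05 (1.93% of all). Fn1, the fibronectin bound by Itga5 with Itgb1, read 7.73, 6.72 and 8.17 in ALDH-positive cells, against 5.16, 3.97 and 5.67 in ALDH-negative cells. Its groups did not overlap and its differences in the 3 pools, 2.57, 2.75 and 2.50, were close. The fibrillar collagens Col3a1 and Col1a1 differed by 3.90 and 1.94, and Ccn2, a matricellular protein, by 2.48 (SE 1.01), or 0.95 without pool 2. Among 14 tested laminins and other basement membrane ligands, 8 lay higher, against 46% of all genes, and the median was 0.070, or 0.31 without pool 2. Nid1, which links laminin to collagen IV, read higher in every pool, by 1.40, 1.74 and 1.32. Lamb1 and Lamc1, laminin chains, differed by 2.25 (SE 0.98) and 0.82 (SE 0.64), and Col4a2 by 2.50 (SE 1.29). Without pool 2 Lamb1 and Col4a2 stood at 0.80 and 0.34. Both read below the filter level in ALDH-negative cells of pool 2, at 1.06 and 2.12.

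In the list of TGF-beta ligands, the LTBP family and other proteins that hold latent TGF-beta, 6 of 8 tested genes lay higher (46% of all genes did). The median was 1.28, or 0.69 without pool 2. Alpha-v integrins bind the RGD site of latent Tgfb1 and Tgfb3, which latent Tgfb2 lacks, and Ltbp2 does not bind latent TGF-beta. Ltbp2, a microfibril protein of the LTBP family, read 5.08, 5.20 and 5.17 in ALDH-positive cells, against 2.32, 2.51 and 2.50 in ALDH-negative cells. The ALDH-negative values lie below the filter level, and the difference was 2.71 (SE 0.63). The ligands Tgfb3 and Tgfb2 stood at 2.21 and 2.30, and at 2.03 and 1.32 without pool 2, while Ltbp4 stood at 1.26 (SE 0.72). Their ALDH-negative values also fell below the filter level, for Tgfb3 in pools 2 and 3, Tgfb2 in pool 2 and Ltbp4 in every pool. In pool 3 Ltbp4 lay below it in ALDH-positive cells too, and differed by -0.073.

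Inside the cell, 21 of 29 tested adaptors and adhesion kinases lay higher in ALDH-positive cells, against 46% of all genes. In every pool 15 did so, against 11.3% of all genes. Zyx, which encodes the focal adhesion protein zyxin, read 9.23, 9.04 and 7.68 in ALDH-positive cells, against 7.90, 4.68 and 5.09 in ALDH-negative cells. Its difference was 2.76 (SE 0.78), or 1.95 without pool 2. Parva (alpha-parvin, a partner of the kinase Ilk), Vcl (vinculin) and Flna (filamin A) differed by 2.50, 2.89 and 2.30, and by 1.09, 0.91 and 0.81 without pool 2. Parva and Vcl read below the filter level in ALDH-negative cells of pool 2, at 2.65 and 0.94. The list's median of 0.89 was 0.28 without pool 2, against 0.039 for all genes.

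Of 9 tested hemidesmosome and laminin receptor partners, 7 lay higher, against 46% of all genes, with a median of 0.88 that was 0.16 without pool 2. The tetraspanins Cd9 and Cd81 differed by 1.20 (SE 0.69) and 0.93 (SE 0.68), Dst, a plakin of hemidesmosomes, by 1.34 (SE 1.00) and Dag1, the laminin receptor dystroglycan, by 0.88 (SE 0.72). Cd9 and Cd81 lay higher in each pool, and Dst and Dag1 did not. Without pool 2 Cd9 stood at 0.68, Cd81 at 0.49, Dst at -0.15 and Dag1 at 0.26. In ALDH-negative cells Cd9 read below the filter level in pools 2 and 3, at 2.51 and 2.12, and Dst in pool 2, at 1.80.

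**Figure D3:**
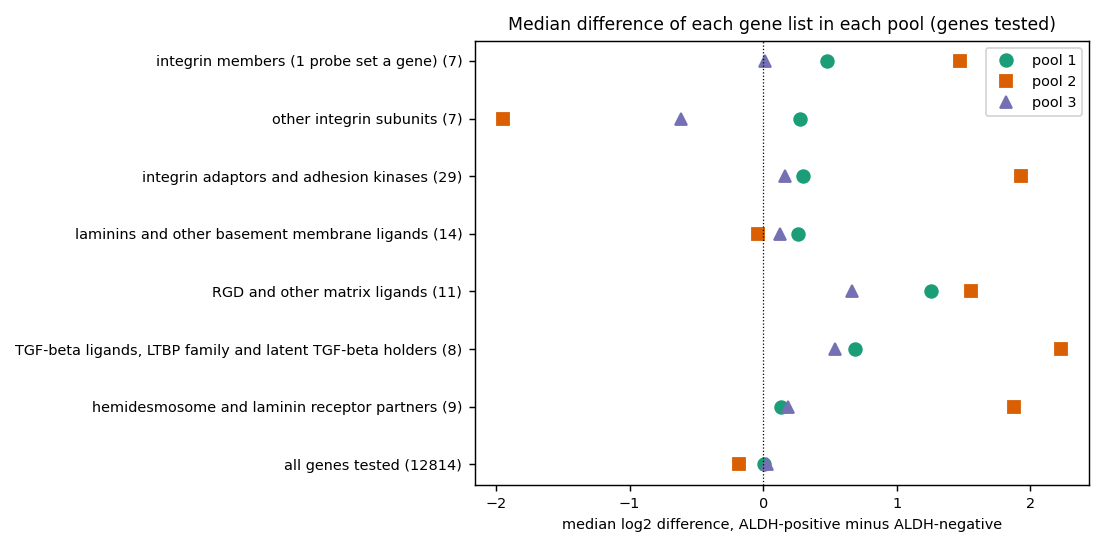
Median log2 difference, ALDH-positive minus ALDH-negative (horizontal axis), of the integrin members and of each list of related genes, 1 symbol a pool; the number of genes tested is in brackets. Pool 2 lies farthest from 0 in all lists but that of the basement membrane ligands, and the RGD ligands and TGF-beta genes lie above 0.5 in all 3 pools.

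Processing changed some integrin values and left others. Under the 11 alternative settings of the fit, Itga3 1455158_at ranged from 1.86 to 2.53, Itga6 1422444_at from 1.71 to 3.74 and Itga6 1422445_at from 0.71 to 1.60, all above 0. The sign turned under at least 2 settings for Itgb4, for 3 probe sets of Itgb5 and for 1 each of Itga3, Itga5 and Itgav. With array weights, 6 of 19 integrin probe sets passed the threshold and lay higher in ALDH-positive cells, against 5.47% of all probe sets, and 9 had an unadjusted p under 0.05 and lay higher, against 11.9%. In the fit with no replicate block 2 of 19 did so, against 1.54%, and without the ALDH-negative array of pool 2 1 of 20 tested, against 1.44%. The fit with array weights gave both arrays of pool 3 a weight of 4.87, those of pool 1 a weight of 1.30 and those of pool 2 a weight of 0.158, so it rests largely on pool 3.

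**Figure D4:**
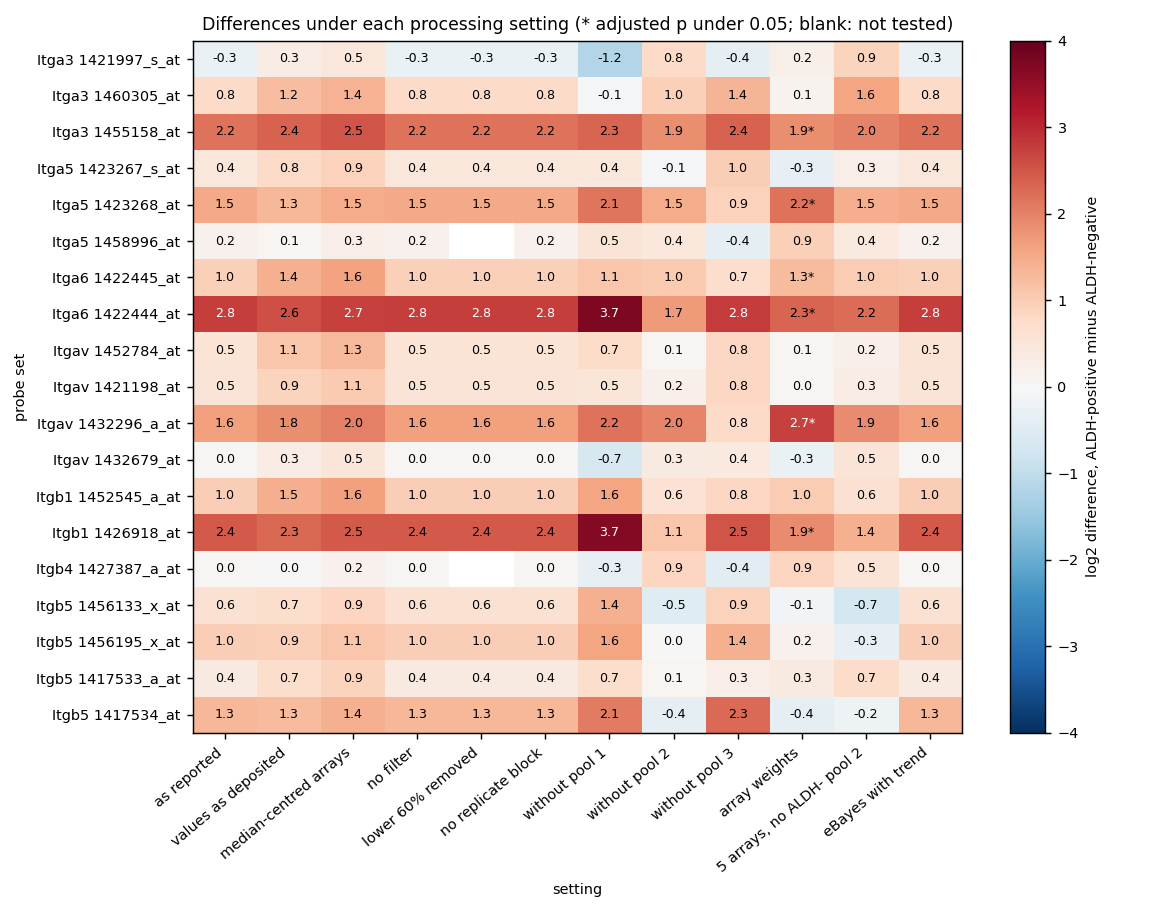
Log2 difference of each tested integrin probe set (rows) under each processing setting (columns), in colour and as a printed value; a star marks a limma adjusted p under 0.05. Stars stand in the column of array weights alone, for 6 probe sets of Itga3, Itga5, Itga6, Itgav and Itgb1.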

How the data were processed

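Per the labels' protocols, RNA was isolated with the mirVana kit and its cDNA amplified (Ovation Pico WTA System V2), which can lose signal unevenly along a transcript. The deposited values, 0.035 to 13.06, were taken as log2 signal because of this range; how they were summarised and normalized is not given in the sources used. After 64 control probe sets were taken out, array medians differed by 0.46, and the 6 arrays were quantile normalized. GEO's platform annotation named the probe sets: 34945 had 1 symbol, 932 several and 9160 none. In lists, the brightest single-symbol probe set in the mean stands for its gene.

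The fractions were tested with limma (version 3.58.1, R 4.3.3), with pool as a block, adjusting by Benjamini-Hochberg over 27022 probe sets. The pairing comes from the series design; as a check, deviations from group means correlated at 0.38, -0.19 and 0.35 between arrays of 1 pool. The 6 arrays limit precision. Members, lists and alternatives (normalization, filter, block, weights, arrays left out) were chosen with earlier results of these data known. All members are named, and up to 4 tested genes of smallest unadjusted p in each other list.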

Additional observations from a re-analysis of the deposited data

How the results depend on the processing

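Of all 27022 probe sets none passed the threshold in the fit reported, with 661 at an unadjusted p under 0.05; 7 passed without pool 1 and 2953 with array weights. Integrin probe sets past the threshold were 0 under every alternative but array weights, which called 6 (9 at an unadjusted p under 0.05). These were Itga3 1455158_at (1.87), Itga5 1423268_at (2.16), Itga6 1422445_at (1.26) and 1422444_at (2.32), Itgav 1432296_a_at (2.73) and Itgb1 1426918_at (1.88). Without the ALDH-negative array of pool 2, 1 was under an unadjusted 0.05, Itga3 1455158_at, and no count by pool could be made. Leaving out 1 pool at a time gave 7 to 11 of 19 integrin probe sets higher in all remaining pools and 1 to 2 lower. Calls over all probe sets were 0 to 7 in these fits. Without pool 2, 25.7% of all probe sets read higher in both remaining pools and 26.4% lower. For the fits without pool 1 or pool 3 that share was not worked out, so their counts are not read as a result about integrins. With no filter 1 of 29 was lower in all pools, a dim Itgb1 probe set (mean 0.62), also without a share worked out. The fit with no replicate block gave 2 integrin probe sets at an unadjusted p under 0.05 in place of 3, and the pairing changed no call.

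Signs turned as follows, and the cause was not tested. Itga3 1421997_s_at gave 0.29 as deposited, 0.45 in median-centred arrays, 0.24 with array weights, 0.90 without the ALDH-negative array of pool 2, and -1.16 to 0.75 over the fits that leave out 1 pool (0.75 without pool 2). Itga3 read as the mean of its probe sets gave 0.89 in place of -0.27. Over the fits that leave out 1 pool, Itga3 1460305_at ranged from -0.058 (without pool 1) to 1.35, Itga5 1423267_s_at from -0.069 (without pool 2) to 0.97, Itga5 1458996_at from -0.40 (without pool 3) to 0.53, Itgav 1432679_at from -0.65 (without pool 1) to 0.40, and Itgb4 from -0.44 (without pool 3, and -0.32 without pool 1) to 0.86. In the same fits Itgb5 1456133_x_at ranged from -0.48 to 1.41, 1456195_x_at from -0.0087 to 1.58 and 1417534_at from -0.39 to 2.25, each lowest without pool 2. Array weights gave -0.34 for Itga5 1423267_s_at, -0.27 for Itgav 1432679_at, -0.12 for Itgb5 1456133_x_at and -0.35 for Itgb5 1417534_at. Without the ALDH-negative array of pool 2, the Itgb5 probe sets 1456133_x_at, 1456195_x_at and 1417534_at gave -0.71, -0.33 and -0.19. Itgb4 gave -0.0099 as deposited. Median centring moved the median of all probe sets to 0.22 and that of the integrins to 1.28.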
